A study of Bos taurus with 9 samples.

Results

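The 2410 H3K9me3 peaks found in rumen epithelial tissue of Holstein calves before weaning were compared with the peaks of 3 active marks from the same tissue and time point. The active lists held 14384 peaks of H3K9ac, 74249 of H3K27ac and 2056 of RNA polymerase II (RNA pol II). All peaks of each list labelled before weaning were taken, 93099 of the 130580 peaks of the series, and none was chosen by its values. The series holds 8 such lists, 1 for each of 4 targets before and after weaning, made by chromatin immunoprecipitation and sequencing (ChIP-seq) against 1 input library. The labels give neither the age or sex of the calves nor whether animals were pooled, and the groups are set apart by time point, target and sequencing lane. No treatment or genetic change is named for any of them.

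The rumen is the fermentation chamber of the cattle stomach, and before weaning a calf lives on milk, so that its rumen is not yet at work as in an adult. H3K9me3, trimethylation of lysine 9 of histone H3, is laid down by enzymes such as SETDB1 and SUV39H1, is bound by HP1 proteins and is best known from silent heterochromatin, satellite repeats and transposons. H3K9ac and H3K27ac, acetylation of lysines 9 and 27, are found at active promoters, and H3K27ac also at active enhancers. RNA pol II is the enzyme that transcribes protein-coding genes. A methyl group and an acetyl group cannot share 1 amino group, so H3K9me3 and H3K9ac exclude each other on the same lysine, but not on neighbouring nucleosomes, on the 2 tails of 1 nucleosome or in different cells. The comparison asked whether the silent and the active marks kept apart.

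Each group was 1 library, so no difference had a replicate error and none was tested. The 95% intervals are Wilson intervals, except those of median distances, which come from the ranks of the distances. All cover counting error only, and they are too narrow where neighbouring peaks are not independent. The main values of contact, distance and bin density stand beside their expectation under uniform placement. In it every H3K9me3 peak keeps its width and may start anywhere on its own chromosome. The expectation was computed exactly from the covered length. The space for placement included stretches to which no read aligns uniquely, and their part in the ratios was not tested. The text of the study and the labels differ on which RNA pol II list is the one before weaning. The labels were followed, and contact, the median distance to any active mark, the bin density and the share of RNA pol II peaks with H3K27ac were also computed with the other list. The remaining results that rest on RNA pol II were not. The labels put the H3K9me3, H3K27ac and RNA pol II libraries on lane 2 and the H3K9ac library on lane 1, and the part of the lane in the contacts was not tested. A peak says only that reads stood above the input there. All lists share that 1 input, and positions alone cannot tell bound protein from a region that yields more reads in any library, so this was not tested. The lists do not carry read depth, and peak positions alone could not check the labelled tissue against its marker genes.

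H3K9me3 peaks were few and narrow. They covered 0.892 Mb, or 0.0336% of the genome, with a median width of 275.5 bp, and 324 of them had the lowest width in the lists, 200 bp. RNA pol II covered 0.659 Mb with a median width of 271 bp, H3K9ac 4.48 Mb with 266 bp and H3K27ac 34.9 Mb with 343 bp. The H3K27ac list thus offered by far the most room for contact, and the RNA pol II list the least.

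Contact, defined as at least 1 bp in common, went in the opposite order to that room. RNA pol II, the shortest list, was touched by 415 H3K9me3 peaks, 17.2% of them (95% CI 15.8 to 18.8), where uniform placement gave 2.19 peaks. The observed number was 189 times the expected one (173 to 207). H3K9ac was touched by 125 H3K9me3 peaks (5.19%), against 9.01 expected, a ratio of 13.9 (11.7 to 16.4). H3K27ac, the longest list, was touched by 55 (2.28%), against 55.04 expected, a ratio of 0.999 (0.770 to 1.30). H3K9me3 therefore met RNA pol II and H3K9ac far more often than placement gives, while the interval for H3K27ac held a ratio of 1. In all, 442 H3K9me3 peaks (18.3%) touched an active peak and 1968 touched none.

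**Figure D1:**
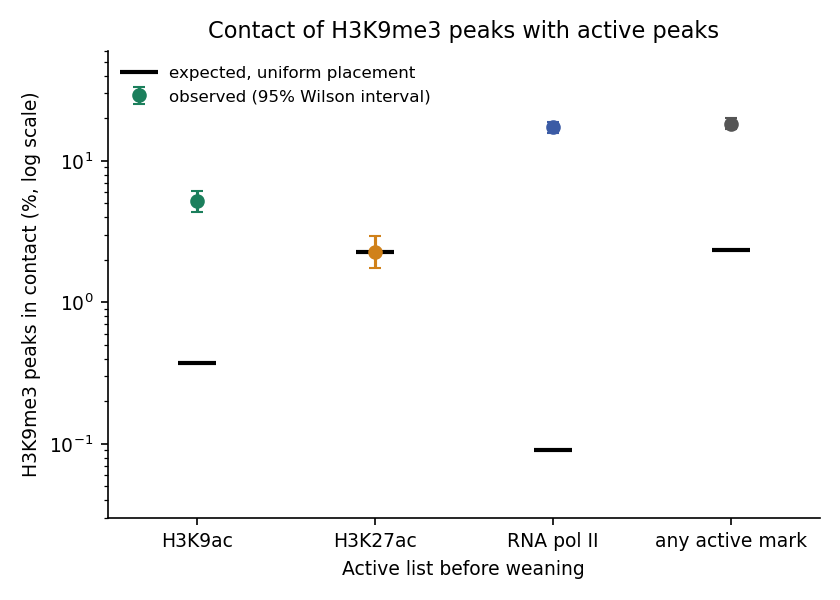
Share of the 2410 H3K9me3 peaks before weaning in contact with a peak of each active list, in percent on a log axis. Points are observed shares with 95% Wilson intervals and bars are the shares expected from uniform placement, which the observed share meets for H3K27ac (2.28%) and exceeds for RNA pol II (17.2%) and H3K9ac (5.19%).

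The active marks set against each other show what contact looked like between marks of one kind. H3K9ac peaks touched H3K27ac 36.2 times as often as placement gives, RNA pol II peaks touched H3K27ac 30.8 times as often and H3K9ac 119 times as often. H3K9me3 thus had a higher ratio with RNA pol II than any of these pairs, and a lower one with H3K9ac and H3K27ac. Ratios of short lists start from a small expectation, and the shares gave another order. Of the RNA pol II peaks, 76.3% touched H3K27ac, 48.7% H3K9ac and 21.7% H3K9me3. From the side of the active lists, 446 RNA pol II peaks (21.7%) touched H3K9me3, 131 H3K9ac peaks (0.911% of the list) did so and 55 H3K27ac peaks (0.0741%).

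A dense cluster of H3K9me3 peaks on chromosome 17, between 50 and 52 Mb, held 395 of the 2410 peaks and moved with the RNA pol II result. In the cluster 29.6% of the H3K9me3 peaks touched RNA pol II (25.3 to 34.3), and outside it 14.8% (13.3 to 16.4). Without the cluster the ratio was 255 for RNA pol II, since the expected number fell with it, and 13.3 for H3K9ac and 1.01 for H3K27ac. When placement was kept within 500 kb of each peak, so that regional density was kept too, the ratio was 12.7 for RNA pol II, 9.38 for H3K9ac and 1.38 for H3K27ac (1.06 to 1.79). The contact of H3K9me3 with H3K27ac was thus at the level of the chromosome and above that of its own neighbourhood. With the RNA pol II list labelled after weaning, 596 H3K9me3 peaks touched RNA pol II, a ratio of 344.

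The H3K9me3 peaks in contact with H3K9ac or H3K27ac mostly touched RNA pol II as well, while most of those in contact with RNA pol II touched no other mark. RNA pol II alone was touched by 301 peaks, RNA pol II with H3K9ac by 78, and all 3 marks by 33. H3K27ac without RNA pol II was met by 19 peaks, 13 with H3K27ac alone and 6 with H3K9ac as well. H3K9ac alone was touched by 8 peaks, and H3K27ac with RNA pol II by 3. Of the 125 peaks in contact with H3K9ac, 14 did not touch RNA pol II.

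Peaks that touched RNA pol II were therefore set aside on both sides, a restriction chosen after the values were seen. The 1995 H3K9me3 peaks left met an H3K27ac peak free of RNA pol II 19 times, against 41.3 expected, a ratio of 0.460 (0.295 to 0.717). Without the chromosome 17 cluster the number was again 19, against 35.3 expected, a ratio of 0.538 (0.345 to 0.837). For H3K9ac the same restriction left 14 contacts against 6.17 expected, a ratio of 2.27 (1.35 to 3.797). With placement kept within 500 kb, a setting also added after the values were seen, the ratio was 0.644 (0.413 to 1.003) for H3K27ac and 2.87 (1.71 to 4.81) for H3K9ac. These ratios describe the contacts that remain, since leaving out the peaks with RNA pol II removed 36 of the 55 contacts with H3K27ac by construction, and the interval for H3K27ac against placement nearby reached 1.

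The width of the H3K27ac peak also went with the contact. H3K27ac peaks of 200 to 300 bp touched H3K9me3 27 times, 1.58 times the 17.1 expected when the H3K27ac peaks are placed. Those over 500 and up to 1000 bp touched it 7 times against 15.2 expected, a ratio of 0.461, and those over 1000 bp 3 times against 7.78, a ratio of 0.386. Broad H3K27ac peaks thus had the lowest ratios, which rest on 7 and 3 contacts and for which no interval was computed. Among equal numbers of the widest peaks of each active list, 2056 per list, a setting that changes number and width together, H3K27ac was touched by 1 H3K9me3 peak, a ratio of 0.219 (0.0387 to 1.24).

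Within the contacts the marks shared much of their length. At the 415 H3K9me3 peaks in contact with RNA pol II the median shared length was 317 bp, or 64.3% of the H3K9me3 peak, and in 329 of them an RNA pol II peak lay wholly inside the H3K9me3 peak. For H3K9ac the median was 264 bp and 45.2%, and for H3K27ac 242 bp and 44.1%. The centres were a median of 63 bp apart for RNA pol II, 75.5 bp for H3K9ac and 99 bp for H3K27ac. Only peaks in contact were measured, which limits how far apart centres can be. No expectation was computed for the offset or the shared length within contacts. The shared length ranged widely, from 5 to 1336 bp for RNA pol II, 55 to 816 bp for H3K9ac and 6 to 644 bp for H3K27ac. At least 50% of the H3K9me3 peak was covered in 290 of the 415 contacts with RNA pol II, 56 of the 125 with H3K9ac and 23 of the 55 with H3K27ac. Of the bases under H3K9me3 peaks, 17.65% were also under an RNA pol II peak, 4.27% under H3K9ac and 1.55% under H3K27ac, which is 712, 25.3 and 1.18 times the share of uniform placement. Both ends of a peak were the same in the H3K9me3 list and in an active list for 2 RNA pol II peaks and 1 H3K9ac peak. The start alone was the same for 31 RNA pol II, 6 H3K9ac and 1 H3K27ac peaks, and the end for 38, 8 and 1.

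The widest H3K9me3 peak in contact with all 3 active marks was at chr23:9846246-9848107 on the assembly UMD3.1.1, 1862 bp wide. It shared 1006 bp with RNA pol II, 582 bp with H3K9ac and 308 bp with H3K27ac, and it was found again after weaning at chr23:9846315-9848060. It was also the widest H3K9me3 peak touching H3K9ac and the widest touching H3K27ac. The next in width were chr5:100987133-100988480 (1348 bp), chr19:3963930-3965086 (1157 bp), chr17:50641208-50642351 (1144 bp) and chr23:11034960-11036073 (1114 bp). Each of these shared more bases with RNA pol II than with either acetylation, from 930 to 1091 bp, and each had an H3K9me3 peak after weaning. The widest H3K9me3 peak in contact with RNA pol II, chr17:51515039-51517571 (2533 bp), held an RNA pol II peak of 205 bp, and its nearest H3K9ac and H3K27ac peaks were 36.5 and 36.6 kb away. Genes at these places were not analysed here, since the gene table at hand is on another assembly.

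Seen from the active marks, the peaks that touched H3K9me3 differed from the rest of their lists in the other marks they met. Of the 446 RNA pol II peaks in contact with H3K9me3, 36 touched an H3K27ac peak, 8.07% (5.89 to 11.0). Of the 1610 other RNA pol II peaks, 1533 did so, 95.2% (94.1 to 96.2). Almost every RNA pol II peak outside H3K9me3 thus carried H3K27ac, and few of those inside it did. H3K9ac peaks were split in the same direction, with 29.01% (21.9 to 37.3) of the 131 in contact with H3K9me3 touching H3K27ac and 90.6% (90.1 to 91.1) of the 14253 others. RNA pol II, by contrast, was met by 88.5% of the H3K9ac peaks at H3K9me3 and by 6.32% of those elsewhere. H3K9ac was met by 26.2% of the RNA pol II peaks at H3K9me3 and by 54.97% of the others. The 55 H3K27ac peaks at H3K9me3 touched H3K9ac in 67.3% and RNA pol II in 65.5% of cases, the others in 15.3% and 2.03%. These comparisons were chosen after the values were seen and were not tested, with 1 library per mark.

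The split was also seen without the cluster and among wide peaks, and was smaller with the other RNA pol II list. Without the chromosome 17 cluster the RNA pol II shares with H3K27ac were 8.39% and 95.4%, and the H3K9ac shares 30.1% and 90.6%. Among RNA pol II peaks wider than their median the shares were 11.9% and 96.4%. With the RNA pol II list labelled after weaning, set against the same H3K9me3 and H3K27ac lists after the values were seen, the shares were 5.20% (3.74 to 7.18) of 654 peaks at H3K9me3 and 27.4% (18.99 to 37.8) of the 84 others. The direction was the same and the gap was much smaller. The median width of H3K9ac peaks differed little by contact, 273 bp at H3K9me3 and 266 bp for the others. RNA pol II peaks were wider at H3K9me3, with a median of 306.5 bp against 263 bp. The share of RNA pol II peaks touching H3K9me3 rose with their width. It was 17.1% of 1231 at 200 to 300 bp, 24.9% of 611 over 300 and up to 500 bp and 38.3% of 206 over 500 and up to 1000 bp. The same split was narrow in space. RNA pol II peaks 10 to 100 kb from H3K9me3 touched H3K27ac in 94.7% of 94 cases, those at 1 bp to 10 kb in 33.3% of 21 (17.2 to 54.6), and those over 1 Mb away in 95.8% of 767. For H3K9ac the share was already 88.1% of 84 peaks at 1 bp to 10 kb.

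**Figure D2:**
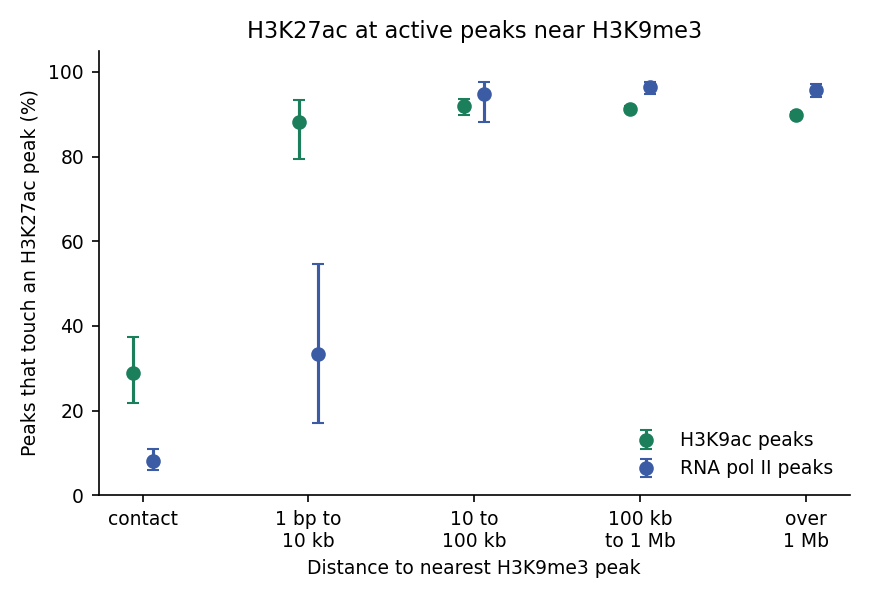
Share of H3K9ac peaks (green) and RNA pol II peaks (blue) before weaning that touch an H3K27ac peak, in percent, by distance to the nearest H3K9me3 peak, with 95% Wilson intervals. The share is 29.01% for H3K9ac and 8.07% for RNA pol II in contact with H3K9me3, and close to 90% or above beyond 10 kb.

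Contact with RNA pol II and H3K9ac rose with the width of the H3K9me3 peak. RNA pol II was touched by 0.926% of the 324 H3K9me3 peaks of 200 bp, 3.88% of the 1057 over 200 and up to 300 bp, 20.1% of the 608 over 300 and up to 500 bp and 59.1% (54.4 to 63.7) of the 421 over 500 bp. Uniform placement, in which wide peaks also meet more, gave 0.0443% for the first class and 0.187% for the last. H3K9ac went from 0.617% to 19.7% over the same classes, and H3K27ac from 2.16% through 0.757% and 1.97% to 6.65%. Wide H3K9me3 peaks thus lay mostly on RNA pol II and narrow ones mostly off it. The median width was 587 bp for the peaks touching RNA pol II and 251 bp for those that did not.

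The H3K9me3 list after weaning shows which of these peaks were seen in a second library, which was run on another lane. An H3K9me3 peak after weaning overlapped 91.6% (88.5 to 93.9) of the peaks touching RNA pol II and 45.7% (43.5 to 47.9) of those that did not. Without the cluster these were 89.6% and 39.95%. Width went with this difference as well. Among peaks over 200 and up to 300 bp the shares were 73.2% of 41 touching RNA pol II and 38.9% of 1016 not touching it. Among peaks over 300 and up to 500 bp they were 86.9% and 64.2%, and among those over 500 bp 97.99% and 92.4%. Only 3 peaks of 200 bp touched RNA pol II. Of the 13 H3K9me3 peaks that touched H3K27ac alone, 1 was found again, against 32 of the 33 that touched all 3 marks. The first had a median width of 242 bp and the second of 795 bp, and the part of width in this difference was not tested. Of the H3K9me3 peaks in contact with an active mark before weaning, 82.9% met the same mark after weaning for RNA pol II, 84.0% for H3K9ac and 70.9% for H3K27ac. Of the H3K9me3 peaks not in contact with that mark before weaning, 12.6%, 8.27% and 8.07% met it after weaning. These shares are not a background level. Uniform placement of all 2410 peaks gave 0.0718% for the RNA pol II list after weaning. It was not computed for the H3K9ac and H3K27ac lists after weaning, which covered 0.0219% and 0.403% of the genome. The H3K9me3 list after weaning touched H3K27ac after weaning 6.96 times as often as placement gives.

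**Figure D3:**
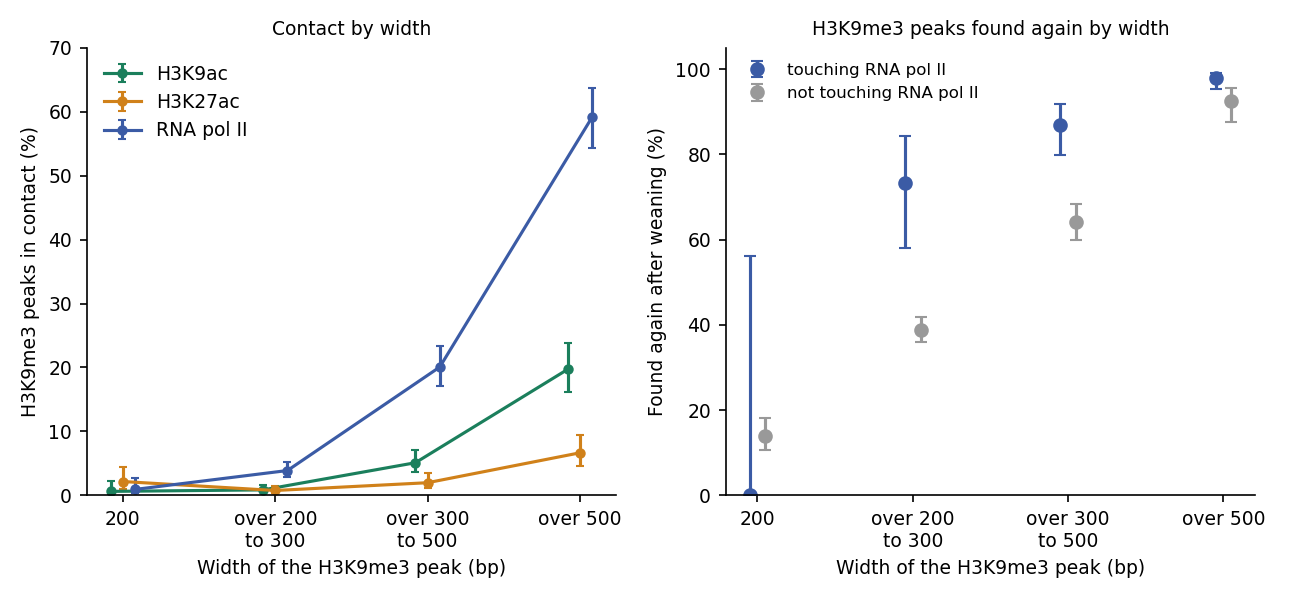
Left, share of H3K9me3 peaks before weaning in contact with each active mark, in percent, by width of the H3K9me3 peak in bp. Right, share found again in the H3K9me3 list after weaning, for peaks touching RNA pol II (blue) and not touching it (grey). Bars are 95% Wilson intervals, RNA pol II contact reaches 59.1% over 500 bp, and over 200 bp the gap between blue and grey narrows with width.

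Distance beyond contact was measured from edge to edge, with 0 for contact. The median distance of an H3K9me3 peak to any active peak was 7.65 kb, against 58.9 kb expected. It was 16.1 kb without the chromosome 17 cluster and 25.03 kb when H3K9me3 peaks within 1 kb were merged, against 58.1 and 59.8 kb. For RNA pol II it was 35.5 kb against 863 kb, for H3K9ac 60.7 kb against 198 kb, and for H3K27ac 58.7 kb against 61.7 kb. H3K9me3 was therefore nearer to RNA pol II and H3K9ac than placement on the chromosome gives. With placement kept within 500 kb, computed after the values were seen, the expected medians were 236 kb for RNA pol II, 129 kb for H3K9ac and 74.1 kb for H3K27ac, and the observed median was lower for each mark. Without the chromosome 17 cluster the medians were 155 kb for RNA pol II, 101 kb for H3K9ac and 75.6 kb for H3K27ac. The H3K27ac median had a 95% interval of 53.5 to 63.3 kb over all peaks, which held its expectation, and of 67.0 to 87.5 kb without the cluster, above an expectation of 60.3 kb. The distance to H3K27ac thus stood above its chromosome-wide expectation once 1 region of 2 Mb was left out, and below the expectation from nearby placement over all peaks.

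The excess near RNA pol II faded over 100 kb. Besides the contacts, 237 H3K9me3 peaks lay within 1 kb of an RNA pol II peak, 49.6 times the expectation, and 420 at 1 to 10 kb, 13.6 times it. At 10 to 100 kb the ratio was 1.18, and beyond 1 Mb it was 0.391. H3K9ac had the same shape at lower ratios, 4.47 within 1 kb, 2.39 at 1 to 10 kb and 1.17 at 10 to 100 kb. H3K27ac did not have it. There were 53 H3K9me3 peaks that lay within 1 kb of H3K27ac without touching it, against 77.5 expected, a ratio of 0.684 (0.524 to 0.892), and at 1 to 10 kb the ratio was 0.850 (0.768 to 0.939). Without the cluster these ratios were 0.569 and 0.850. With placement kept within 500 kb, computed after the values were seen, they were 0.882 (0.676 to 1.15) and 1.01 (0.912 to 1.12). Just outside contact H3K9me3 was thus sparser around H3K27ac than on the chromosome at large, and not detectably so against its own neighbourhood. For RNA pol II the nearby placement gave 4.04 within 1 kb, 2.24 at 1 to 10 kb and 0.504 at 10 to 100 kb, and for H3K9ac 3.14, 1.72 and 0.973. Peaks over 1 Mb from H3K27ac were rare as well, 49 against 170 expected, as were those over 1 Mb from any active peak, 26 against 156. With nearby placement these expectations were 67.3 and 27.2.

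**Figure D4:**
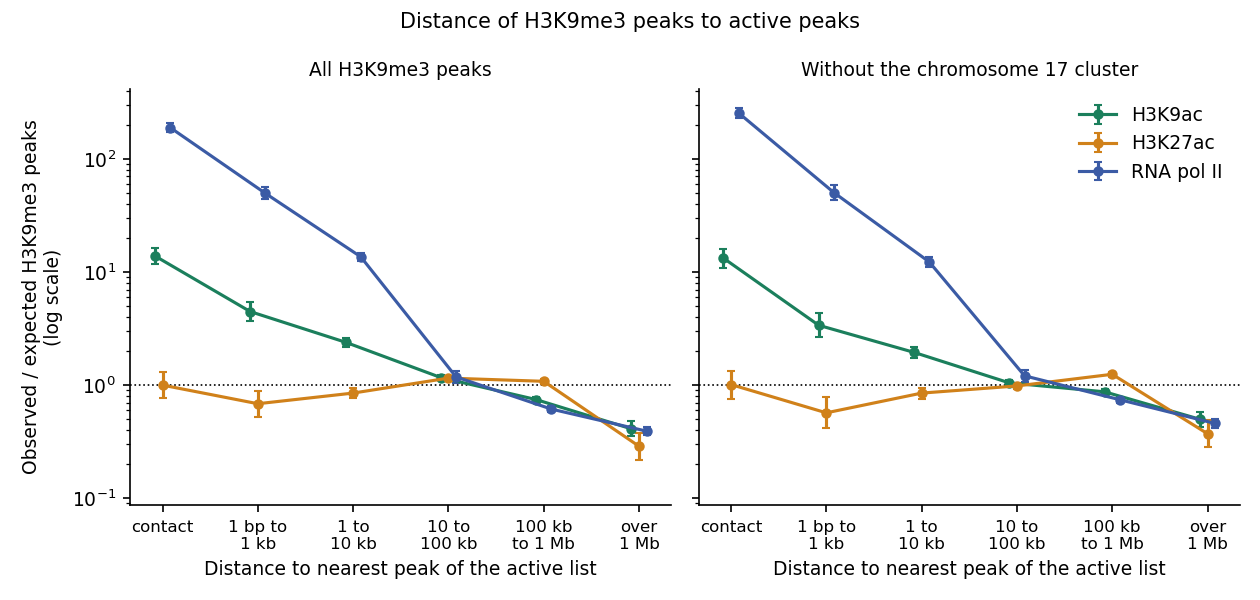
Observed over expected number of H3K9me3 peaks before weaning by distance to the nearest peak of each active list, on a log axis, over all peaks (left) and without the chromosome 17 cluster (right). Bars are 95% Wilson intervals over the expectation, and the dotted line marks a ratio of 1. RNA pol II and H3K9ac start above it and fall, while H3K27ac lies at or under it up to 10 kb.

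Of the 1968 H3K9me3 peaks without contact, the nearest active peak was H3K27ac for 49.5%, RNA pol II for 43.0% and H3K9ac for 7.47%. The lists make up 81.9%, 2.27% and 15.9% of the active peaks in the same order, so only RNA pol II was nearest more often than its share. Of the 1968 peaks, 277 lay in the chromosome 17 cluster, and the shares without it were not computed. Where RNA pol II was nearest, it lay a median of 2.86 kb away, and where H3K27ac was nearest, 65.4 kb. H3K9me3 peaks free of contact thus included many close to RNA pol II. The farthest of all were narrow, at chr24:16947552-16947751 (200 bp, 2599 kb from the nearest active peak), chr8:33978052-33978266 (2246 kb), chr24:16534826-16535048 (2187 kb), chr15:12103387-12103598 (2016 kb) and chr16:15421255-15421538 (1824 kb). H3K27ac was the nearest active mark to each of these 5, and at 2 of them H3K9ac was as near when rounded to 1 kb.

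At the 1 Mb scale the genome was cut into 2675 bins, of which 741 held an H3K9me3 peak. The bins were not split into silent and active ones. Bins with H3K9me3 held a median of 20 H3K27ac peaks and 3 H3K9ac peaks, and those without it 14 and 2. RNA pol II peaks were found in 45.3% of the bins with H3K9me3 and in 28.6% of those without. Counted once per bin, density beside H3K9me3 was 1.03 times the chromosome mean for H3K27ac, 1.06 times for H3K9ac and 1.55 times for RNA pol II. Across bins the Spearman correlation of H3K9me3 counts was 0.07 with H3K27ac, 0.10 with H3K9ac and 0.19 with RNA pol II, against 0.89 between H3K9ac and H3K27ac. These are descriptions over bins that share libraries and mappability.

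Counted once per H3K9me3 peak, which gives crowded bins their weight, the picture differed. A peak had 20.4 H3K27ac peaks in its bin against 29.2 expected, a ratio of 0.699, and 0.792 without the chromosome 17 cluster. It had 14.8 RNA pol II peaks against 1.25, a ratio of 11.8, and 4.83 without the cluster. It had 7.13 H3K9ac peaks against 5.68, a ratio of 1.25, which turned to 0.972 without the cluster. The H3K27ac density was thus lower per H3K9me3 peak and not per bin that held one. For comparison, the bin of an RNA pol II peak held 1.83 times the expected H3K27ac peaks, and that of an H3K9ac peak 2.09 times.

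The crowded bins were few. The 14 bins with at least 20 H3K9me3 peaks held 878 of them, 36.4% of the list. They held a mean of 9.64 H3K27ac peaks, against 26.9 in bins without H3K9me3, and 18.7 RNA pol II peaks against 0.569. Their mean of H3K9ac, 5.71, was near the 5.11 of bins without H3K9me3. Each of the 14 held RNA pol II. Without the 2 bins of the chromosome 17 cluster, the other 12 held 483 H3K9me3 peaks, with a mean of 10.5 H3K27ac and 11.25 RNA pol II peaks. Their mean of H3K9ac was 4.25, below that of bins without H3K9me3. Among H3K9me3 peaks in these bins 26.2% touched RNA pol II, and among those alone in their bin 6.78%. H3K27ac ranged from 0 to 84 peaks over the 14 bins, with a median of 2.5, and 11 of them held more RNA pol II than H3K27ac peaks. Dense H3K9me3 thus mostly came with dense RNA pol II and thin H3K27ac, with exceptions, while single H3K9me3 peaks lay in bins with a mean of 31.5 H3K27ac peaks.

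**Figure D5:**
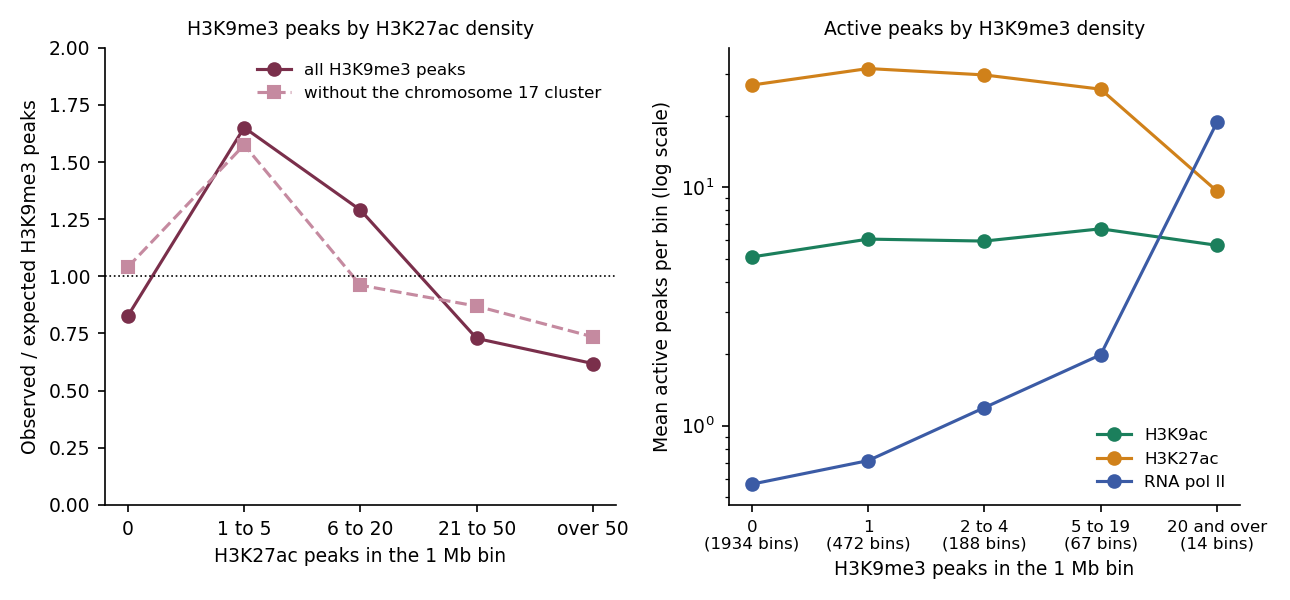
Left, observed over expected number of H3K9me3 peaks before weaning in 1 Mb bins grouped by their number of H3K27ac peaks, over all peaks and without the chromosome 17 cluster, with a dotted line at a ratio of 1. Right, mean number of active peaks per bin on a log axis, by the number of H3K9me3 peaks in the bin, where RNA pol II rises to 18.7 and H3K27ac falls to 9.64 in the 14 fullest bins.

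The density of H3K27ac in the bin gave no steady order. Bins with 1 to 5 H3K27ac peaks held 632 H3K9me3 peaks, 1.65 times the expectation, and bins with over 50 held 304, 0.618 times it. Without the chromosome 17 cluster these ratios were 1.575 and 0.735, and that of bins with 6 to 20 went from 1.29 to 0.961. Bins with no H3K27ac peak held 294, a ratio of 0.827 that was 1.04 without the cluster. The share of bins with any H3K9me3 peak rose from 19.01% (15.4 to 23.2) where H3K27ac was absent to 32.8% (29.4 to 36.5) at 21 to 50 H3K27ac peaks, and was 28.99% (25.2 to 33.1) over 50, near the 28.6% at 6 to 20. The mean number of H3K9me3 peaks in a bin that held any was 4.03 without H3K27ac, 5.75 at 1 to 5 and 2.07 over 50 H3K27ac peaks. At 1 to 5 it was 4.61 without the cluster.

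The bins with the most H3K9me3 peaks show the pattern singly. Bin chr17:51000001-52000000 held 265 H3K9me3 peaks with 79 RNA pol II, 16 H3K9ac and 7 H3K27ac peaks, and 72 of the 265 touched RNA pol II. The bin just before it held 130 H3K9me3 peaks with 48 RNA pol II and 2 H3K27ac peaks. In chr6:6000001-7000000 there were 72 H3K9me3 and 16 RNA pol II peaks, in chr9:7000001-8000000 65 and 26, and in chr17:25000001-26000000 64 and 16, the last with no H3K27ac peak. All 5 had more RNA pol II than H3K27ac peaks. Among bins without H3K9ac and RNA pol II, the fullest were chrX:36000001-37000000 with 15 H3K9me3 peaks and no active peak, chrX:35000001-36000000 with 7 beside 8 H3K27ac peaks, and chr7:11000001-12000000 with 6 and no active peak.

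Contacts were unevenly divided over the 30 chromosomes (1 to 29 and X). At least 1 H3K9me3 peak touched RNA pol II on 29 of them, and none of 17 did on chromosome 20. Chromosome 17 had 142 of the 415 contacts, chromosome 9 had 52 and chromosome 19 had 30. The share ran up to 29.9% of 174 peaks on chromosome 9, followed by 27.6% of 514 on chromosome 17, and chromosomes 7 and 16 had 1 contact each. H3K9ac was touched on 23 chromosomes and H3K27ac on 21. The expected numbers per chromosome were mostly under 1 for H3K9ac and RNA pol II and under 2 for H3K27ac, so single contacts set the side of the expectation and no count of chromosomes above it is given.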

How the data were processed

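ChIP-seq was performed on rumen epithelial tissue with 1 library per target and time point, as 75-nt reads. The authors aligned reads with BWA to UMD3.1.1 (UMD3.1 in the submitters' processing notes, which also name Trim Galore 0.4.1), kept unique alignments with fewer than 2 mismatches and called peaks with MACS2 against 1 input, at default settings. Unique alignment removes reads from long repeats, where H3K9me3 is common, and defaults for narrow peaks can split broad domains. The deposited values are chromosome, start and end in bp in 3 columns, with no score, height or depth. Positions were read as 1-based with both ends included, since the lowest difference of end and start was 199. Chromosome extent was the highest peak end over the 8 lists, 2658 Mb in all.

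Contact was at least 1 shared bp, and shares of touched peaks follow the study's similarity of lists, for which no least overlap is stated in the sources used here. Expectations under uniform placement were computed exactly and checked on simulated data. Bins counted peak midpoints per 1 Mb, with the length-weighted mean of the same chromosome as expectation. Python 3.11.15, numpy 2.4.6 and scipy 1.17.1 were used. With 1 library per group no test was made. The members, lists, named regions and alternatives were chosen with earlier results of these data known. Regions were named by width, distance and H3K9me3 count: the widest in contact with each mark and with all 3, the 5 farthest from active peaks, and the fullest bins. Gene lists and sequences were not used here, as no annotation of this build was at hand. The alternatives changed overlap, placement, peak number, merging, width, cluster, RNA pol II list, distance measure and bins, 1 at a time, except that equal numbers of the widest active peaks changed number and width together. Leaving out peaks with RNA pol II, also with placement within 500 kb, distance classes under that placement and the H3K27ac share of the other RNA pol II list were added after the data were seen.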

Additional observations from a re-analysis of the deposited data

How the results depend on the processing

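Of 75 values recomputed for 8 results under 15 settings, 36 stayed within the counting interval (or, for densities, a factor of 1.5), 37 moved and 2, both densities, changed side of 1. The contact ratio with H3K27ac, whose interval held 1, was counted only as moved or not and lay on either side of 1 by setting, from 0.219 to 1.38. Of the 36, 13 were exactly as reported because the setting left their peaks unchanged. Values are ratios of observed to expected. A reciprocal overlap of 50% gave 19.4 for contact with H3K9ac, 433 for RNA pol II and 17.5 for any mark. Extending active peaks by 1 kb gave 7.25 (H3K9ac), 93.5 (RNA pol II) and 5.03 (any). For H3K27ac that setting gave 0.815 (0.678 to 0.979), within the main interval though its own interval lay under 1. Placement within 500 kb gave 9.38, 1.38 (H3K27ac), 12.7 and 6.31 (any), and 0.167 for the median distance. Equal numbers of the widest active peaks gave 8.97 (H3K9ac), 0.219 (H3K27ac), 55.7 (any) and 0.0568 (distance). Merging H3K9me3 peaks within 1 kb, to 1688 peaks, gave 11.6 (H3K9ac), 141 (RNA pol II), 6.32 (any) and 0.419 (distance). The 1205 H3K9me3 peaks wider than the median gave 21.8 (H3K9ac), 1.34 (H3K27ac), 257 (RNA pol II), 12.4 (any) and 0.0254 (distance). Without the chromosome 17 cluster the values were 255 (RNA pol II contact), 6.98 (any), 0.277 (distance), 4.83 (RNA pol II density) and 0.972 for H3K9ac density, which was 1.25 over all peaks and so changed side. The RNA pol II list labelled after weaning gave 344 (contact), 10.9 (any), 0.0682 (distance) and 23.4 (density). Counting each bin once gave 1.55 for RNA pol II density and 1.03 for H3K27ac density, which changed side from 0.699. Leaving out the regions with all 4 marks, which removes contacts by construction, gave 10.5 (H3K9ac) and 0.409 (H3K27ac). Without peaks that touch RNA pol II, the setting added after the data were seen, the ratios were 2.27 (H3K9ac) and 0.460 (H3K27ac). The causes of these shifts were not tested unless the setting itself gives them. The contact ratios with H3K9ac, RNA pol II and any mark stayed above 1, and that of the median distance under 1, in each setting tried for them. No replicate could be left out, and depth was not known.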
